A study of Homo sapiens with 8 samples.

Results

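Between the heavy and light pools of a polysome gradient, 182 genes shifted in the same direction with the OGFOD1 label in both leukaemia lines examined. They were chosen by a size rule on the deposited counts. Loading was defined as log2 CPM (read counts scaled to library size by TMM, with an offset of 0.5 CPM) in the heavy minus the light pool of a gradient. The loading change was OE minus control within a line. CPM gives the share of a gene in its own library, so loading does not tell which pool held more of its RNA. Genes with a mean of at least 10 CPM over the 8 libraries were kept when the change had the same sign and an absolute value of at least 1 in both lines. Of 78932 gene IDs, 9299 reached 10 CPM; 89 of these (0.957%) had a higher loading with the OE label in both lines and 93 (1%) a lower one. In Molm13 alone 29% of the 9299 genes reached 1 or more and 14.1% reached -1 or less, and in U937 alone 3.39% and 3.19%. A further 92 genes reached 1 in opposite directions, and the changes in the lines did not correlate across genes (Pearson -0.000444). Sharing between the lines is therefore not read as a result. These loading values chose the genes and are therefore described without a test.

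The cells were human acute myeloid leukaemia lines, Molm13, which carries a KMT2A rearrangement and a FLT3 internal tandem duplication, and U937, which is of monocytic character. The genotypes were OGFOD1 OE, made with a lentiviral overexpression vector, and control, named Scr in the count table. Each line and genotype gave 1 gradient, with a heavy pool of the fractions holding 3 or more ribosomes and a light pool of free ribonucleoproteins, monosomes and disomes, so each of the 4 groups (OE heavy, OE light, control heavy, control light) held 2 libraries, 1 per line. All cells were grown in the same medium, treated with cycloheximide to hold ribosomes on the RNA and sequenced with a Smart-seq kit that does not mark the strand; separate cultures within a line are not described.

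An mRNA with many ribosomes sediments deep in a sucrose gradient and one with none or few stays near the top, so the heavy-to-light ratio is commonly read as an index of how many ribosomes a transcript carries. Long reading frames can hold more ribosomes than short ones. The mRNAs of ribosomal proteins and several translation factors begin with a terminal oligopyrimidine (TOP) tract, a run of C and T (U in the RNA) opened by a C, through which growth signalling controls their entry into polysomes. mRNAs of secreted and membrane proteins are translated by ribosomes bound to the endoplasmic reticulum (ER), which they reach through hydrophobic stretches of the nascent protein. OGFOD1 hydroxylates a proline of the ribosomal protein RPS23.

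OGFOD1 itself (ENSG00000087263, chromosome 16) was lower in the libraries labelled OE. In Molm13 it had 25.3 CPM in the heavy and 16.7 CPM in the light OE library, against 44.4 and 33.0 CPM in the control. U937 had 12.4 and 10.1 CPM with the OE label, against 60.2 and 49.8 CPM in the control. Over heavy and light libraries its log2 difference was -1.60 (edgeR quasi-likelihood test, SE 0.30, adjusted p = 0.0178), and OE and control libraries did not overlap. That test counts the pools of a gradient as independent, and with both pools summed per gradient 0 of 25667 genes passed. The label and the level of the gene it names thus disagree, and every direction below goes by the label. Loading of OGFOD1 hardly differed, by 0.16 in Molm13 and 0.02 in U937. RPS23 had a loading change of -0.82 in Molm13 and -1.41 in U937, so it missed the rule through Molm13.

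Total counts ran from 25741930 to 89373133 per library and 27392 to 33915 gene IDs had a count. One library stood apart. RNA of the mitochondrial genome made up 19.8% of the counts in the Molm13 OE light pool, 20.5% in the U937 OE light pool and 23.3% in the U937 control light pool, but 2.49% in the Molm13 control light pool; the heavy pools held 0.36% to 0.941%. Across genes the loading in the Molm13 control gradient was compressed, with an interquartile range of 0.87 against 1.82 in Molm13 OE, 1.32 in U937 OE and 1.38 in U937 control. Every Molm13 loading change below uses that library, and every U937 value is free of it, which is why both are given each time. List values without that library are given after the lists. Myeloid markers were present throughout (12 of 12 at 10 CPM or more, 1233 to 3122 CPM summed), while erythroid (0 of 11, at most 0.764 CPM), B cell (0 of 6, at most 8.66 CPM) and epithelial markers (0 of 6, at most 23.7 CPM) stayed low in all libraries. T and NK cell markers (3 of 8 at 10 CPM) moved with the label in the heavy pools, where they summed to 672 and 634 CPM in the OE libraries of Molm13 and U937, against 246 and 191 CPM in the controls. The light pools held 181 and 212 CPM with the OE label, against 359 and 76.9 CPM in the controls. Fibroblast and endothelial markers (1 of 8 at 10 CPM, 3 at 0 in all libraries) summed to 77.2 to 129 CPM in the OE and 41.7 to 92.8 CPM in the control libraries. The part of these markers in the results was not tested. FLT3, which is mutated in Molm13, had 85.3 to 170 CPM in the Molm13 and 93.6 to 202 CPM in the U937 libraries, so its level did not separate the line labels.

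Coding sequences were searched for stretches rich in codons with T at the middle base, which encode phenylalanine, leucine, isoleucine, methionine and valine. A window of 20 codons with at least 60% such codons was found in 36 of the 78 protein-coding genes with higher loading that had a complete annotated reading frame (46.2%), in 5 of 72 with lower loading (6.94%) and in 1682 of 7747 other genes (21.7%). The richest window of the 6 highest-ranked genes that have one is printed to make the pattern visible, with codons with T at the middle base in capitals. They come from CA9 (chr9:35673856-35681159, codons 414 to 433), EMC7 (chr15:34084017-34101948, codons 160 to 179), NDFIP1 (chr5:142108505-142154443, codons 116 to 135), FCER2 (chr19:7688758-7702146, codons 24 to 43), LAPTM4A (chr2:20032650-20052028, codons 161 to 180), CD81 (chr11:2376177-2397419, codons 207 to 226), all gene positions on GRCh38 in GENCODE 29, read on the strand of the transcript.
CA9: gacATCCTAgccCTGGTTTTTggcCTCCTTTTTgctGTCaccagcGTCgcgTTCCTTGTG
EMC7: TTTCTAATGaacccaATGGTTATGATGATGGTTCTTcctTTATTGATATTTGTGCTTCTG
NDFIP1: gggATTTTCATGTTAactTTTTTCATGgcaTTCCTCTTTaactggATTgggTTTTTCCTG
FCER2: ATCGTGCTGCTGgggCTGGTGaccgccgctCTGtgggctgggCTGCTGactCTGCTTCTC
LAPTM4A: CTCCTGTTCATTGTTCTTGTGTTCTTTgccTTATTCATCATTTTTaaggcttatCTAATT
CD81: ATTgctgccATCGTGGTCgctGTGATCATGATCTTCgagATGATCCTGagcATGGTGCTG

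Between 12 and 17 of the 20 codons are capitalised in these windows, and the EMC7 window carries the most. These windows were chosen for holding at least 60% codons with T at the middle base, so their counts cannot be compared with those below. CD58 and ARPC5, also highly ranked with higher loading, had 55% and 45% in their richest windows and were passed over. Among genes with lower loading, MT-ND4L reached 65% and DHX9 60%. The richest windows of 2 highly ranked coding genes with lower loading whose exons overlap no other gene had 11 and 10 such codons. These were HSP90AB1 (chr6:44246166-44253888) and TKT (chr3:53224707-53256052).
HSP90AB1: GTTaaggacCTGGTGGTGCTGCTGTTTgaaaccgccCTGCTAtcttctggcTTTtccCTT
TKT: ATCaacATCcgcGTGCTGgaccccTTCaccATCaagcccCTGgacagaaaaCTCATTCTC

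Annotated starts were searched for an opening pyrimidine run. A C followed by at least 4 more C or T at the first base of any annotated coding transcript, read on the transcript strand, was found for 21 of 73 protein-coding genes with lower loading (28.8%), 7 of 78 with higher loading (8.97%) and 852 of 7828 other genes (10.9%); each class had a median of 4 coding transcripts per gene. Annotated starts miss tracts: of 79 ribosomal protein genes, whose mRNAs are TOP mRNAs, 47 had one by this search. RefSeq windows around starts (GRCh38.p14) were matched for 59 of the lower and 61 of the higher genes, too few for a share, and are used only to show sequence. The first 25 bases are printed, with the opening pyrimidine run in capitals, for highly ranked genes with a RefSeq start that opens with such a run: 6 from the ribosomal protein and other TOP lists and 2 from neither. They were chosen for the run and show its form, from EIF2S3 (chrX:24054956-24054980, plus strand), RACK1 (chr5:181243882-181243906, minus strand), RPL31 (chr2:101002289-101002313, plus strand), RPS27 (chr1:153990762-153990786, plus strand), RPL34 (chr4:108620576-108620600, plus strand), RPL14 (chr3:40457339-40457363, plus strand), RRM1 (chr11:4094685-4094709, plus strand), SND1 (chr7:127652194-127652218, plus strand).
EIF2S3: CTCTTTTggcaacatggcgggcgga
RACK1: CTCTCTTTCactgcaaggcggcggc
RPL31: CTTCCTTTCCaacttggacgctgca
RPS27: CCTTTCCggcggtgacgacctacgc
RPL34: CCTCTTCCggggacgttgtctgcag
RPL14: CTTCTCgcctaacgccgccaacatg
RRM1: CTTCTgggtcttgcccagactcaac
SND1: CTCTTTCgctccgtgtcccgctgct

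The runs are 5 to 10 bases long. The GENCODE search found no run of 5 bases at a start of EIF2S3, RPS27, RPL14, RRM1 or SND1, so the annotations place these starts differently. CA9 and EMC7 were the highest-ranked genes with higher loading among those with no such run at a RefSeq start, at CA9 (chr9:35673928-35673952, plus strand) and EMC7 (chr15:34101838-34101862, minus strand).
CA9: accgtgtgctgggacaccccacagt
EMC7: ggtctgagtgcagagctgctgtcat

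Genes with higher loading were ranked by the smaller of their 2 loading changes. CA9, the cell-surface carbonic anhydrase induced by hypoxia, came first, with 39.4 CPM in the heavy and 5.18 CPM in the light OE library of Molm13, against 6.59 and 17.1 CPM in the control. U937 had 54.0 and 9.03 CPM with the OE label, against 0.432 and 0.299 CPM in the control. The loading change was 4.13 in Molm13 and 2.29 in U937, where the control loading rests on levels below 1 CPM. EMC7, a subunit of the complex that inserts membrane proteins into the ER, was abundant in all libraries. Its level was 220.3 CPM heavy and 72.3 CPM light in Molm13 OE, against 66.4 and 135 CPM in the control, and 234 and 66.7 CPM in U937 OE, against 129.8 and 138 CPM in the control. EMC7 CPM was thus higher in the heavy than in the light pool of both OE gradients. It was no higher there in both controls, giving changes of 2.61 and 1.89.

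NDFIP1, an adaptor of ubiquitin ligases in endosomal and Golgi membranes, had 191 CPM heavy and 89.5 CPM light in Molm13 OE, against 68.7 and 110.1 CPM in the control. In U937 the values were 177 and 59.7 CPM with the OE label, against 95.8 and 101 CPM in the control, and the changes were 1.76 and 1.64. ARPC5, a subunit of the actin-nucleating Arp2/3 complex, had 354 CPM heavy and 105 CPM light in Molm13 OE, against 149 and 197 CPM in the control. Its U937 levels were 323 and 84.5 CPM with the OE label, against 190.0 and 139.6 CPM in the control. Both genes were higher in the OE heavy libraries and lower in the OE light libraries than in the matching controls, in each line.

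Several genes with higher loading encode leukocyte surface proteins. CD47, the ligand that restrains phagocytosis, had 111 CPM heavy and 90.5 CPM light in Molm13 OE, against 43.1 and 92.2 CPM in the control, and 201 and 103 CPM in U937 OE, against 106 and 156 CPM in the control. CD58, the adhesion ligand of CD2, had 33.2 and 12.6 CPM in Molm13 OE, against 18.3 and 22.0 CPM in the control, and 49.2 and 17.6 CPM in U937 OE, against 22.2 and 24.2 CPM in the control. For both, CPM was no higher in the heavy than in the light pool of the control gradients, and higher in the OE gradients. CD81, a tetraspanin, changed mainly in the light pool: it had 151 CPM heavy and 49.6 CPM light in Molm13 OE, against 114 and 104 CPM in the control, and 118 and 27.8 CPM in U937 OE, against 114 and 71.8 CPM. FCER2, the low-affinity IgE receptor, had changes of 2.87 and 1.47, but its U937 control levels were 1.31 CPM heavy and 0.579 CPM light. Of 35 leukocyte surface antigens at 10 CPM, a list written after the genes were seen, 8 met the rule, all higher: FCER2, CD59, CD58, CD53, ICAM1, CD47, CD81 and AXL. Its median change was 1.46 in Molm13 and 0.65 in U937, against 0.26 and 0.12 over all 9299 genes, of which 0.957% were higher. The members were known when the list was written, so neither its count nor its medians are read as a result.

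Several lysosomal genes met the rule. LAPTM4A, a membrane protein of late endosomes and lysosomes, had 69.2 CPM heavy and 24.6 CPM light in Molm13 OE, against 26.6 and 38.2 CPM in the control. Its U937 levels were 74.3 and 24.6 CPM with the OE label, against 38.5 and 35.7 CPM in the control, so the heavy pool exceeded the light one clearly in both OE gradients and little or not at all in the controls. PSAP, the precursor of the saposins that activate lipid hydrolysis, had 484 CPM heavy and 112 CPM light in Molm13 OE, against 134 and 233 CPM in the control. In U937 it had 499.9 and 90.3 CPM with the OE label, against 113 and 52.2 CPM in the control, where the heavy pool also exceeded the light one. The thioesterase PPT1 (2.00 in Molm13, 1.37 in U937), the proteases CTSB (2.89, 1.19) and CTSL (1.43, 1.03) and the proton pump accessory subunit ATP6AP1 (2.13, 1.10) also met the rule. Of 47 lysosome and V-ATPase genes at 10 CPM, 6 met it, all higher (12.8%, against 0.957% of all genes). In both lines 38 had a change above 0 (80.9%), where 34.7% of all 9299 genes did. In both lines 1 was below 0, where 16.1% of all genes were. The median was 1.54 in Molm13 and 0.60 in U937. FUCA1, a lysosomal fucosidase ranked among the first 12, had changes of 1.71 and 1.40.

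Genes of entry into the ER followed. SRP14, a subunit of the signal recognition particle, had 1266 CPM heavy and 322 CPM light in Molm13 OE, against 767 and 927 CPM in the control, and 1166 and 231 CPM in U937 OE, against 1405 and 688 CPM in the control. In U937 the shift therefore lay in the light pool, since the heavy OE library was the lower one. PDIA3, a protein disulfide isomerase that also serves MHC class I loading, changed by 1.10 and 1.01, and SPCS3, a signal peptidase subunit, by 1.19 and 1.00. With EMC7 these 4 met the rule among 47 genes of ER translocation, insertion and glycosylation (8.51%, against 0.957% of all genes). The list's median was 1.34 in Molm13 and 0.39 in U937, and 29 were above 0 in both lines (61.7%, against 34.7% of all genes). MHC class I presentation genes had 11 of 17 above 0 in both lines (64.7%, beside the same 34.7%) and medians of 1.98 and 0.52, with PDIA3 as the 1 member. Myeloid receptor and granule genes had 21 of 25 above 0 in both lines (84%, beside the same 34.7%) and medians of 1.26 and 0.52. SRGN, the proteoglycan of secretory granules, met the rule at 1.60 and 1.17. SRGN had 9582 CPM heavy and 3799 CPM light in Molm13 OE, against 3907 and 4689 CPM in the control. In U937 it had 8480.3 and 2464 CPM with the OE label, against 4941 and 3227 CPM in the control.

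Among transporters, SLC16A3, which exports lactate, and AQP3, a water and glycerol channel, met the rule. They are 2 of the 7 genes at 10 CPM on their list (28.6%, against 0.957% of all genes). That list had medians of 1.48 and 0.92. SLC16A3 had 139.8 CPM heavy and 16.6 CPM light in Molm13 OE, against 51.7 and 70.3 CPM in the control. U937 levels were 60.9 and 12.1 CPM with the OE label, against 18.8 and 9.74 CPM in the control. The Molm13 change of 3.48 was thus well above the 1.36 in U937, whose control gradient already had a higher SLC16A3 CPM in the heavy pool. AQP3 showed the same contrast between lines, at 3.60 and 1.25. Among hypoxia targets CA9 was the only one of 30 to meet the rule (3.33%, against 0.957% of all genes). In both lines 19 had a change above 0 (63.3%, against 34.7% of all genes). The list's medians were 0.74 in Molm13 and 0.37 in U937. Its median in the fit over both lines took the other sign without the Molm13 control light library (-0.14, against 0.70 with all libraries). That fit still holds the Molm13 control heavy library, without its light partner. A few members lay outside these groups: the mitochondrial ribosomal protein MRPS23 (1.67, 1.14), the translation initiation factor subunit EIF2B1 (2.10, 1.01) and the prefoldin subunit VBP1 (1.27, 1.01).

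**Figure D1:**
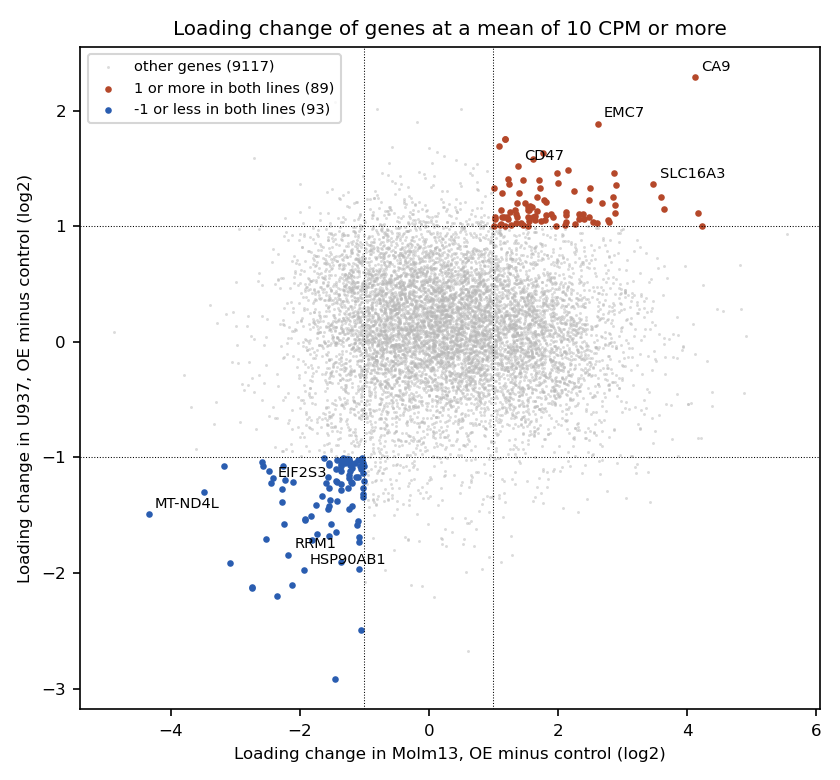
Loading change in Molm13 (horizontal axis) against U937 (vertical axis), OE minus control on the log2 scale, for 9299 genes at a mean of 10 CPM or more. The dotted lines mark 1 and -1, the 89 red points and 93 blue points met the rule in both lines, and the grey cloud is wider in Molm13 than in U937 and shows no slope.

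**Figure D2:**
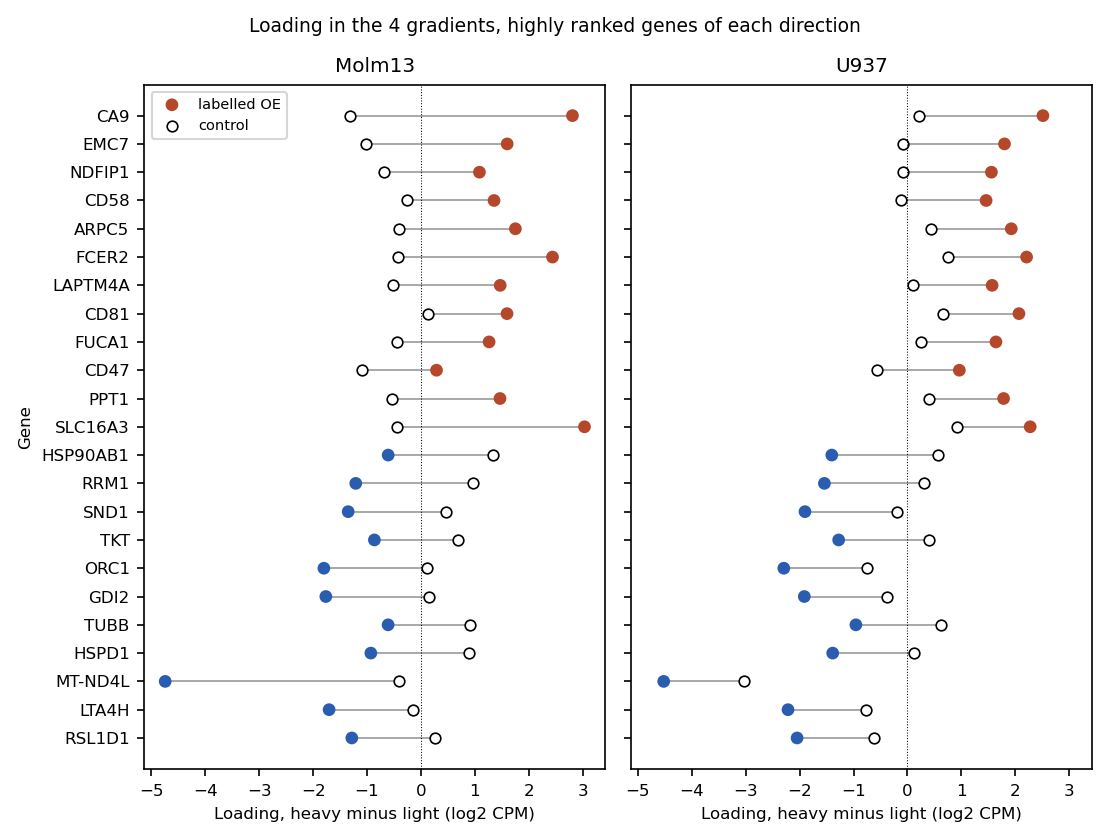
Loading (log2 CPM, heavy minus light) of 12 highly ranked protein-coding genes with higher and 11 with lower loading. In each line filled points are gradients labelled OE (red, higher; blue, lower) and open points are controls, and each line segment is the loading change, from CA9 at 4.13 and 2.29 to RSL1D1 at -1.54 and -1.42.

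Genes with lower loading were ranked in the same way. HSP90AB1, the constitutive HSP90 chaperone, came first and had 786 CPM heavy and 1197 CPM light in Molm13 OE, against 1732 and 688 CPM in the control. Its U937 levels were 646 and 1710.1 CPM with the OE label, against 1260.4 and 847 CPM in the control. The pool with the higher HSP90AB1 CPM was the light one in both OE gradients and the heavy one in both controls. The change was -1.94 in Molm13 and -1.98 in U937. The mitochondrial chaperonin HSPD1 shifted in the same way, with 316 CPM heavy and 602 CPM light in Molm13 OE, against 624 and 334 CPM in the control, and 326 and 854 CPM in U937 OE, against 564 and 519 CPM in the control. Among 31 chaperone genes at 10 CPM 3 met the rule as lower (9.68%, against 1% of all genes) and 1 as higher (3.23%, against 0.957%). The 3 include CCT4 of the tubulin- and actin-folding chaperonin, at -1.03 in both lines. The list's medians were -0.04 in Molm13 and -0.69 in U937. TUBB and TUBA1B, tubulins themselves, were 2 of 8 tubulin genes at 10 CPM (25%, against 1% of all genes). The tubulin medians were 0.08 in Molm13 and -0.56 in U937. The tubulin list was written after the genes were seen, so its count and medians are not read as a result. TUBB had 373 CPM heavy and 568 CPM light in Molm13 OE, against 735 and 391 CPM in the control, and 366 and 709.8 CPM in U937 OE, against 747 and 486 CPM in the control.

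Enzymes and factors of nucleotide supply and DNA replication were the next group. RRM1, the large subunit of ribonucleotide reductase, had 37.1 CPM heavy and 86.4 CPM light in Molm13 OE, against 114 and 57.7 CPM in the control. In U937 it had 43.7 and 128 CPM with the OE label, against 148 and 120.1 CPM in the control. The U937 light libraries were close, so the change of -1.84 there came from the heavy pool; in Molm13 it was -2.18. TKT, the transketolase of the pentose phosphate pathway, had 269 CPM heavy and 489 CPM light in Molm13 OE, against 488 and 303 CPM in the control, and 279 and 676 CPM in U937 OE, against 367 and 278 CPM in the control. GMPS (-1.65 in Molm13, -1.33 in U937) and IMPDH2 (-1.25, -1.26), both of guanine nucleotide synthesis, the folate enzymes SHMT2 (-1.19, -1.22) and MTHFD1 (-1.35, -1.03) and AHCY (-1.56, -1.17), which hydrolyses S-adenosylhomocysteine, made up 7 of 34 genes with RRM1 and TKT on a list written after the genes were seen. Its medians were -0.69 and -0.14. The members were known when it was written, so its count is not read as a result, and 1% of all genes were lower. Of 51 DNA replication genes 4 met the rule as lower: RRM1, the origin recognition subunit ORC1 (-1.91, -1.54), the licensing factor CDT1 (-1.42, -1.22) and GINS4 (-1.01, -1.07), a subunit of the helicase-associated GINS complex. The 4 are 7.84% of the list, where 1% of all genes were lower. The list's medians were -0.23 and -0.16, nearer to those of all genes than the 4 members. In level over both pools, by the edgeR test given below, 25 of the 51 genes fell, where 391 of all 9299 did (4.2%).

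Of 79 cytosolic ribosomal protein genes, all at 10 CPM or more, 11 met the rule as lower (13.9%, against 1% of all genes) and 0 as higher. In both lines 60 were below 0 (75.9%, against 16.1% of all genes) and 0 were above 0. The medians were -0.70 in Molm13 and -0.97 in U937. RPS4X had 369 CPM heavy and 854 CPM light in Molm13 OE, against 689 and 546 CPM in the control, and 317 and 1054 CPM in U937 OE, against 662 and 917 CPM in the control. RPS27 had a higher CPM in the light than in the heavy pool of every gradient. In Molm13 OE it had 245 CPM heavy and 1086 CPM light, against 273 and 566 CPM in the control. Its U937 levels were 311 and 1922 CPM with the OE label, against 391 and 824 CPM in the control. RPL34, RPL31, RPL36A, RPL11, RPL6, RPS18 and RPL14 also met the rule. Processed pseudogenes can share reads with ribosomal protein genes, and the pseudogene RPL36AP37 (-1.01, -1.21) met the rule as well, so these counts are uncertain for single genes.

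Of 24 other TOP mRNAs 8 met the rule, all lower (33.3%, against 1% of all genes). In both lines 20 were below 0 (83.3%, against 16.1% of all genes), and the medians were -1.58 and -0.88. EEF1A1, the elongation factor that brings aminoacyl-tRNA to the ribosome, had 2258 CPM heavy and 14008 CPM light in Molm13 OE, against 3658 and 3790.4 CPM in the control. Its U937 levels were 2125 and 19482 CPM with the OE label, against 2410.4 and 10742 CPM in the control. In U937 the heavy libraries were close and the change of -1.04 lay in the light pool; the Molm13 change was -2.58. EIF2S3, a subunit of the initiation factor that carries the initiator tRNA, had 113 CPM heavy and 812 CPM light in Molm13 OE, against 164 and 217 CPM in the control, and 140.1 and 1045 CPM in U937 OE, against 195 and 622 CPM in the control. PABPC1, the cytoplasmic poly(A)-binding protein (-3.16, -1.07), the importin IPO5 (-2.41, -1.18), the ribosome-bound scaffold RACK1 (-1.22, -1.12), VIM (-1.44, -1.10), EEF1D (-1.19, -1.09) and EEF1B2 (-1.03, -1.06) were the remaining 6. Among 39 other initiation, elongation and termination factors 0 met the rule as lower and 1, EIF2B1, as higher. Of 23 cytosolic aminoacyl-tRNA synthetases, which load amino acids onto tRNAs, EPRS1 (-2.11, -1.21) and GARS1 (-1.59, -1.22) met it (8.7%, against 1% of all genes). In both lines 13 were below 0 (56.5%, against 16.1% of all genes).

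Genes with an annotated tract outside these lists were closer to all genes. Genes with a tract that were on neither list, 820 in all, had medians of -0.02 in Molm13 and 0.08 in U937, against 0.28 and 0.16 for 7067 genes with no tract that are not ribosomal. The rule was met as lower by 11 (1.34%) and as higher by 7 (0.854%) of the 820, against 47 (0.665%) and 71 (1%) of the 7067, and 22.3% against 14.6% were below 0 in both lines. The 47 ribosomal protein genes with an annotated tract had medians of -0.70 and -0.99, and the 32 without one -0.67 and -0.90.

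Some genes with lower loading encode RNA-binding proteins outside the ribosome. On a list written after the genes were seen, 11 of 28 met the rule, all lower, with medians of -1.26 and -0.54. Of all genes 1% were lower. The members were known when the list was written, so its count and medians are not read as a result. SND1, a Tudor nuclease domain protein, had 49.7 CPM heavy and 127 CPM light in Molm13 OE, against 76.0 and 55.0 CPM in the control, and 49.3 and 185 CPM in U937 OE, against 55.6 and 63.4 CPM in the control. Here the OE light libraries stood out in both lines. NONO (-2.27, -1.38), the helicase DHX9 (-1.43, -1.38), PCBP2 (-2.27, -1.27), the exonuclease XRN2 (-1.55, -1.05), nucleolin (NCL; -1.08, -1.96), RBMX (-1.36, -1.06), RBM3 (-1.01, -1.05), PABPC1 and PABPC4 (-2.56, -1.08) also met it. Other high-ranking genes with lower loading were GDI2, a regulator of RAB GTPases (-1.91, -1.54), LTA4H, which makes an inflammatory leukotriene (-1.56, -1.45), and RSL1D1, a nucleolar protein (-1.54, -1.42).

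MT-ND4L was the 1 gene to meet the rule of 13 mitochondrial genes that encode proteins. An exon of another gene overlaps it, so some of its reads may belong to that gene. It had 35.3 CPM heavy and 959.6 CPM light in Molm13 OE, against 192 and 254 CPM in the control, and 56.4 and 1306 CPM in U937 OE, against 158 and 1292 CPM in the control. The mRNAs of these 13 genes are made and translated inside mitochondria. As a list their medians were -2.98 in Molm13, where the control light library was poor in them, and -0.18 in U937.

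Of the 182 genes, 80 with higher and 74 with lower loading were annotated as protein-coding. The other annotated types counted 5 higher and 14 lower, and the remaining IDs were not in GENCODE 29. Several of these lay on or resembled a coding gene that met the rule. RRM1-AS1, antisense to RRM1, had changes of -2.36 and -2.20, PCBP2-OT1, inside PCBP2, -2.74 and -2.12, PABPC4-AS1 -2.51 and -1.71, and the pseudogenes NPM1P27 -2.12 and -2.10 and EEF1A1P5 -2.47 and -1.11. The library kit does not mark the strand, so reads from a gene and from an overlapping or antisense partner cannot be told apart, and those of a pseudogene can come from its parent. RN7SK, the small nuclear RNA of a transcription regulator complex, was listed under 2 IDs with identical counts and had changes of 1.18 and 1.75. Exons of 34 of 80 coding genes with higher loading (42.5%), 43 of 74 with lower loading (58.1%) and 4390 of 7956 others (55.2%) overlapped an exon of another gene.

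The values just inside and outside the threshold differed little. TSPAN3 (1.96 in Molm13, 1.00 in U937) and PAAF1 (1.54, 1.00) were the last coding genes inside, and LDLRAD4 (1.03, 1.00) and SDF2 (2.47, 1.00) fell short of 1 in U937 before rounding. On the lower side CRTAP (-1.03, -1.01) and DLGAP5 (-1.32, -1.01) were inside, and HSPA1B (-1.25, -0.995), which shares reads with its near-identical copy HSPA1A, and MTIF2 (-1.66, -0.99) outside.

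**Figure D3:**
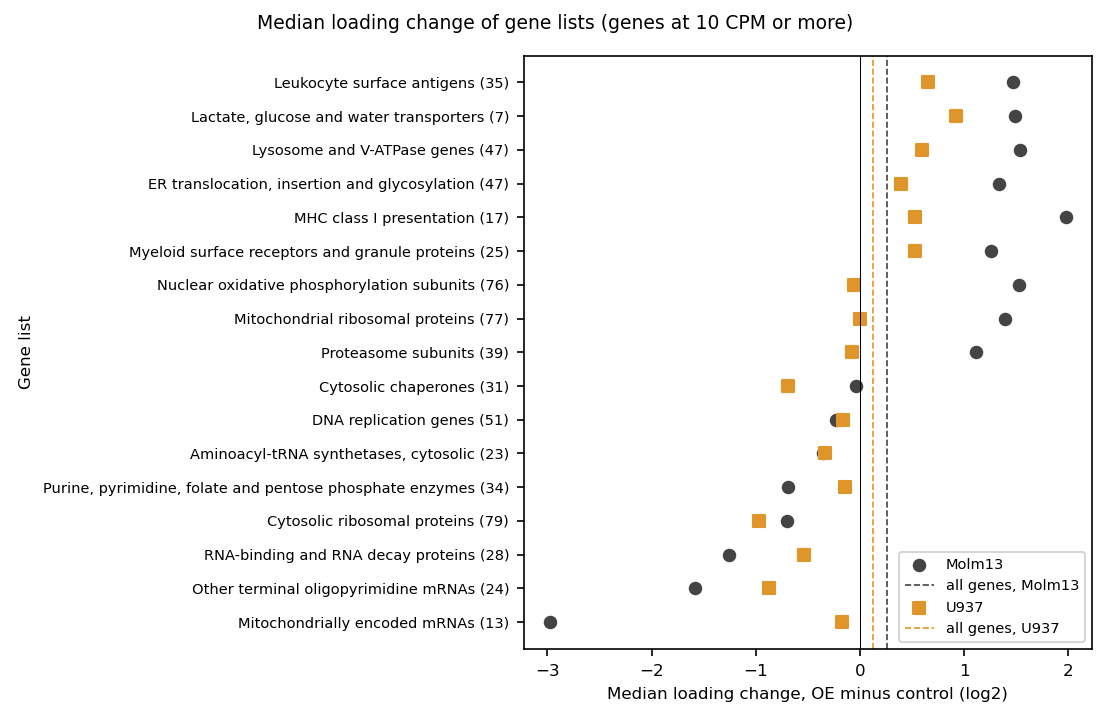
Median loading change (OE minus control, log2) of 17 gene lists in Molm13 (circles) and U937 (squares), with the number of genes at 10 CPM or more in parentheses and dashed lines at the medians of all genes (0.26 and 0.12). Lysosome genes lie to the right in both lines, ribosomal protein and other TOP genes to the left in both, and oxidative phosphorylation, mitochondrial ribosome and proteasome genes at 1.53, 1.39 and 1.11 in Molm13 and near 0 in U937. The lists of leukocyte surface antigens, nucleotide enzymes and RNA-binding proteins were written after the genes were seen.

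Leaving the Molm13 control light library out of the edgeR fit over both lines moved many lists. The median fitted interaction (log2) was then 0.55 for lysosome genes, against 1.00 with all libraries, 0.36 against 1.17 for leukocyte surface antigens and 0.43 against 1.02 for MHC class I genes. It was 0.47 against 0.80 for ER translocation, 0.51 against 0.94 for myeloid receptors and granule proteins and 0.74 against 1.21 for the transporters, where all genes at 10 CPM had 0.10 against 0.22. These lists kept their sign and stayed above all genes, and hypoxia targets did not. Leukocyte surface antigens, RNA-binding proteins, nucleotide enzymes and tubulins were listed after the genes were seen, so their medians are not read as a result. The refit uses the same counts as the rule, so it shows only how far the medians depend on 1 library. Ribosomal proteins had -0.62 against -0.77, other TOP mRNAs -0.87 against -1.22 and RNA-binding proteins -0.74 against -0.95. Nucleotide enzymes had -0.18 against -0.38 and mitochondrially encoded mRNAs -0.28 against -1.24, and DNA replication genes took the other sign, at 0.04 against -0.12. Chaperones (-0.46 against -0.28), tubulins (-0.48 against -0.17) and aminoacyl-tRNA synthetases (-0.50 against -0.36) were lower without it. Other libraries also mattered: hypoxia targets had 0.17 without U937 OE heavy, DNA replication genes 0.03 without U937 OE heavy and tubulins 0.05 without U937 control light.

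The rule used both pools, so their differences are a description. Of the 89 genes with higher loading, 51 were higher in the heavy and lower in the light OE library in both lines (535 of all 9299 genes, 5.75%), with median differences of 1.12 in Molm13 and 0.83 in U937 in the heavy pool and -0.78 and -0.53 in the light pool. Of the 93 with lower loading, 72 were lower in the heavy and higher in the light OE library in both lines (298 of all 9299, 3.2%), with medians of -0.71 and -0.57 in the heavy pool and 0.77 and 0.74 in the light pool. In bulk RNA the share of cells and the RNA per cell behind such a level cannot be told apart. The median level was 47.5 CPM for the higher, 118 CPM for the lower and 33.5 CPM for the other genes.

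**Figure D4:**
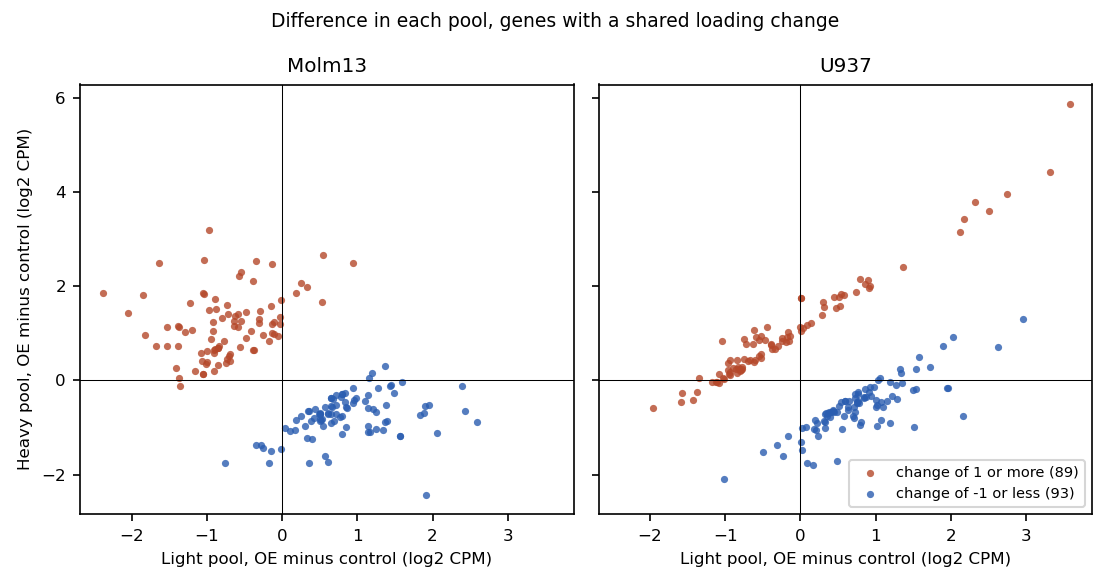
Difference between OE and control libraries in the heavy pool (vertical axis) against that in the light pool (horizontal axis), log2 CPM, for the 182 genes in Molm13 (left) and U937 (right). Most red points (higher loading) lie above and left of the origin and most blue points (lower loading) below and right, with medians of 1.12 and -0.78 for the red and -0.71 and 0.77 for the blue points in Molm13, and 7 red points in U937, CA9, FCER2, ICAM1, GPRC5C, CCL24, AXL and SERPINI1, lie above 3 in the heavy and above 2 in the light pool.

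The difference between OE and control over both pools is another contrast than the loading change, but it uses the same 8 libraries and counts. It was tested with edgeR's quasi-likelihood test over 24289 genes, of which 487 (2.01%) rose and 574 (2.36%) fell. Of the 89 genes with higher loading 10 rose and 1 fell, and of the 93 with lower loading 3 rose and 2 fell. No share is read from the 10, because the minimum of 10 CPM favours genes that are high with the OE label: in 3 of them, CCL24, AXL and SERPINI1, the control libraries averaged under 10 CPM, as in 6 of the 89. Those that rose were SERPINI1, a neuronal serine protease inhibitor (log2 fold change 2.22, SE 0.36, adjusted p = 0.0125, edgeR), ENPP2, the secreted phospholipase autotaxin (1.51), GPRC5C (2.32), the adhesion receptor ICAM1 (1.99), the receptor kinase AXL (2.17), TPST2 (1.51), ZNF185 (1.18), RNF149 (0.99), CERCAM (1.08) and the chemokine CCL24 (2.53). SERPINI1 had 15.8 CPM heavy and 10.9 CPM light in Molm13 OE, against 2.06 and 7.33 CPM in the control, and 30.1 and 12.5 CPM in U937 OE, against 2.93 and 2.48 CPM in the control. ICAM1 had 47.4 and 28.0 CPM in Molm13 OE, against 12.6 and 24.6 CPM in the control, and 39.1 and 21.2 CPM in U937 OE, against 3.17 and 4.29 CPM in the control. SERPINI1 did not overlap between OE and control libraries. ICAM1 was higher with the OE label in each line and pool, but its U937 OE light level lay below its Molm13 control light level. PITHD1 fell by 1.02 while its loading was higher. The GINS4 level also fell (-1.42, SE 0.24, adjusted p = 0.0133, edgeR), with MTHFD1 (-0.94), while the aminopeptidase NPEPPS (0.97) rose along with 2 unnamed IDs. Of the 24 highest-ranked coding genes, 0 passed this test, so for EMC7 (0.14, SE 0.27), HSP90AB1 (-0.07, SE 0.33) or TUBB (-0.23, SE 0.29) no difference in overall level was detectable. The test counts the pools of a gradient as independent. When both pools were added up per gradient, 0 of 25667 genes passed in edgeR, with 4278 at an unadjusted p under 0.05. Leaving out 1 library moved the total of 1061 calls to between 18 (without U937 OE heavy) and 3567 (without Molm13 control light), and dropping the line from the fit gave 116.

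Coding and untranslated lengths were not used by the rule and differed between the groups. The median reading frame was 896 bases for genes with higher loading, 1776 for genes with lower loading and 1245 for the others, and the median 3′ UTR was 1059, 466 and 1017 bases. The median 5′ UTR was 131, 208 and 193 bases. In Molm13 the loading change fell with coding length across all 7897 genes (Spearman -0.50), with medians of 1.04 for frames of 75 to 660 bases and -0.63 for frames of 2244 bases or more; in U937 there was little relation (0.06), with medians of 0.09 and 0.22. U937 does not use the library that stood apart. The 3′ UTR length went opposite ways in the lines (Spearman -0.38 in Molm13, 0.27 in U937), and in Molm13 against the shorter 3′ UTRs of the genes with lower loading. The 20-codon window differed in the other line: genes with one had a median change of 0.32 in U937, against 0.10 without one, and in Molm13 0.21 against 0.23. Genes share reads, pathways and libraries, so these are descriptions across genes with no p-value.

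**Figure D5:**
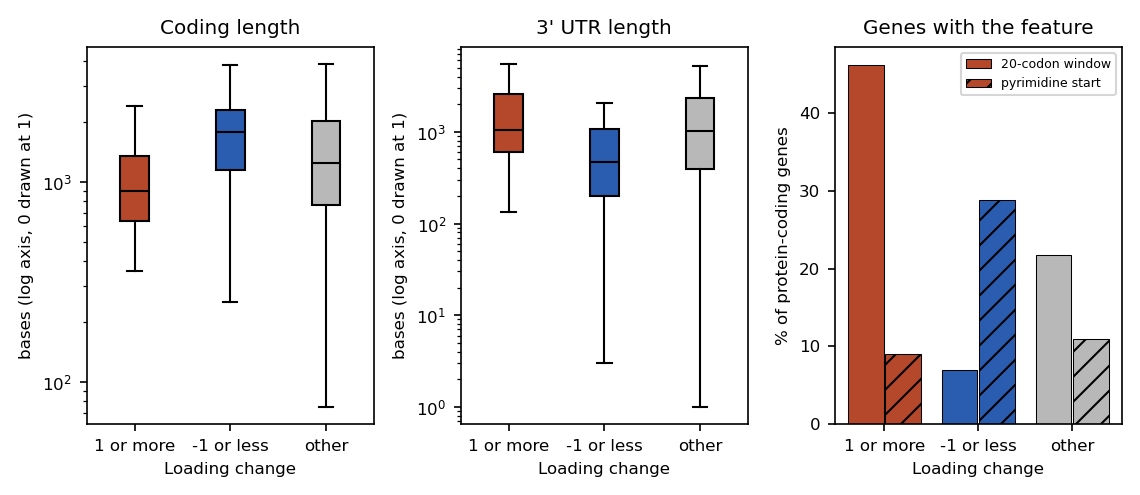
Coding length and 3′ UTR length (boxes, quartiles and median; outliers not drawn; log axis with a length of 0 drawn at 1) and the percentage of protein-coding genes with a 20-codon window rich in codons with T at the middle base (plain bars) or an annotated pyrimidine start (hatched bars). Genes with higher loading (red) have, beside other genes (grey), shorter reading frames and the window in 46.2%, and genes with lower loading (blue) longer frames, shorter 3′ UTRs and a pyrimidine start in 28.8%.

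The lines shared few large changes. In Molm13 alone 2699 genes reached 1 or more and 1308 reached -1 or less, and in U937 alone 315 and 297. Besides the 182 genes, 92 reached 1 in opposite directions, 52 higher in Molm13 and lower in U937 and 40 the reverse. Across 9299 genes the changes in Molm13 and U937, which share no library, correlated at -0.000444 (Pearson) and -0.0349 (Spearman). The Molm13 change correlated at 0.716 with the loading in U937 control, with which it shares no library either, and the Molm13 OE loading at 0.915. The Molm13 control loading correlated with the other 3 gradients at 0.366 to 0.470. The interaction test asks whether the OE label changed the heavy-to-light difference over both lines. With edgeR it called 0 of 24289 genes (0%), with a smallest adjusted p of 0.791. At an unadjusted p under 0.05 there were 1431 genes, where 1214 would be expected with no difference in any gene. DESeq2 called 6 and limma voom 0. Without the U937 control light library the edgeR count was 1371, and without the U937 control heavy library 2. The direction of the split also rested on scaling: upper-quartile scaling gave 31 higher and 156 lower genes, centring each line on its median 35 and 165, and library totals 113 and 84, in place of 89 and 93. Upper-quartile scaling and centring put the median change of all genes at 0.13 and 0 in Molm13, in place of 0.26, and at -0.06 and 0 in U937, in place of 0.12.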

How the data were processed

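RNA of 8 gradient pools (2 lines, 2 genotypes, 2 pools) was sequenced. The submitters' processing notes name GRCh38 with featureCounts, STAR and cutadapt; versions, gene annotation and strand option were not given in the sources used here. Raw counts of reads per gene for 78932 Ensembl IDs were deposited by the authors. TALAM1, antisense to MALAT1, held 99.95% to 99.98% of the MALAT1 counts, so overlapping genes counted the same reads. CPM, loading and loading changes were computed here with TMM scaling (edgeR 4.0.16, R 4.3.3), an offset of 0.5 CPM and a minimum mean of 10 CPM. The interaction and the both-pools contrast were fitted to the counts with edgeR's quasi-likelihood test (group plus line, 3 residual degrees of freedom, filterByExpr, Benjamini-Hochberg threshold 0.05), after tests on simulated data. DESeq2 1.42.0 and limma 3.58.1 were alternatives. Standard errors come from the F statistic. The 2 libraries of a group are different lines, so the p-values rest on how far group differences vary between Molm13 and U937. The Molm13 control light library is part of that spread. Nothing states separate cultures, so variation between cultures of a line is not measured, and part of the spread may be technical.

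The labels pair libraries by line; deviations from group means correlated between groups at -0.1 to 0.628, and the fits carry the line as a block. Gene types, lengths and reading frames came from GENCODE 29 (1 principal or longest coding transcript per gene), start sequences from RefSeq (GRCh38.p14), and symbols were found for 9084 of the 9299 genes. The genes and lists were chosen with earlier results of these data known, and 4 lists (leukocyte surface antigens, tubulins, nucleotide enzymes, RNA-binding proteins) after the genes were seen. Counts of members on these 4 lists and their medians are not read as results. Named were OGFOD1, RPS23, the 12 coding and 3 other genes per direction with the largest smaller-of-both-lines change, up to 4 genes per list that met the rule (2 where none did) and 2 on each side of the threshold; other named genes were chosen after their values were seen. Some genes that the rule names are not reported here. Figures were drawn with matplotlib 3.10.9 in Python 3.11.15.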

Additional observations from a re-analysis of the deposited data

Results flagged for a closer look

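In 92 genes the loading change reached 1 or more in opposite directions in Molm13 and U937; 52 were higher with the OE label in Molm13 and 40 in U937. The difference between the lines was not tested for these genes, since each line holds 1 gradient per genotype.

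Some gene lists had median loading changes that were far apart between the lines, also untested. Nuclear oxidative phosphorylation subunits had a median of 1.53 in Molm13 and -0.06 in U937, a difference of 1.59. Mitochondrial ribosomal proteins had 1.39 and -0.003 (difference 1.39), and proteasome subunits 1.11 and -0.08 (difference 1.19). Nuclear and long noncoding RNAs had -1.17 in Molm13 and 0.22 in U937 (difference -1.39), and zinc finger genes of chromosome 19 had -1.20 and 0.29 (difference -1.49). All Molm13 values use the Molm13 control light library, in which mitochondrial RNA made up 2.49% of the counts. In the fit over both lines without that library, the median interaction was 0.20 for oxidative phosphorylation (0.81 with all libraries), 0.35 for mitochondrial ribosomal proteins (0.69), 0.24 for proteasome subunits (0.52), -0.05 for nuclear and long noncoding RNAs (-0.52) and 0.10 for the zinc finger genes (-0.40), which took the other sign.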

How the results depend on the processing

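The count of 182 genes was 197 with library totals (137 shared with the 182), 187 with upper-quartile scaling (124 shared) and 200 with each line centred (128 shared), but the split of 89 higher and 93 lower was 31 and 156 with upper-quartile scaling and 35 and 165 with centring. A threshold of 1.5 left 20 (4 higher, 16 lower), and coding genes with no overlapping gene numbered 77 (46 higher, 31 lower). Molm13 libraries alone gave 4007 (2699 higher, 1308 lower) and U937 libraries alone 612 (315 and 297). The edgeR interaction count of 0 was 74 with no filter on low counts, 6 with DESeq2 and, with 1 library left out, 0 to 1371. A line by pool term, added after seeing the data, gave 0, as did the replicate block by gradient and the fit with no replicate block. The count over both pools of 1061 was 633 with library totals, 2299 with no filter, 116 with no replicate block (the line left out of the fit), 2655 with DESeq2, 0 with pools summed per gradient and 18 to 3567 with 1 library left out; leaving out U937 OE heavy gave 18, U937 control heavy 297, Molm13 OE heavy 449, U937 OE light 525, Molm13 control heavy 589, U937 control light 2460 and Molm13 control light 3567. The cause was not tested. Of the list medians averaged over the lines, 229 recomputed values moved by less than the spread between lines and 17 by more. The 229 include 41 with Molm13 alone and 41 with U937 alone, which could not move by more than that spread. Where the lines lie far apart the measure is lenient, so these counts are not read as stability. For single genes the counts were 430 and 100. The sign turned in 25 of 246 list values (16 lists, mostly of values near 0 or with U937 alone). It also turned in OGFOD1 with upper-quartile scaling (-0.06) and centring (-0.10, against 0.09). In genes that met the rule it turned in 0 of 325 values. The rule chose them for a change of at least 1 in both lines, so their sign could hardly turn. Translation factors had -0.18 with centring, against 0.01. Depth limits genes near 10 CPM, such as CA9 and FCER2 in U937 control.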
